A study of Mus musculus with 18 samples.

Results

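The most abundant mRNA isoforms of mouse myotubes were described here, an isoform being an mRNA defined by the position of its 5′ end and its 3′ end. They were chosen by coverage, the count that the authors' tables give for each isoform over all libraries of an assay. A coverage of at least 1000 in the polysome table took 327 of 7095 nuclear isoforms, and a coverage of at least 2000 in the decay table took 312 of 6593. These are 479 different isoforms of 11301 listed in either table, and 160 passed both thresholds. They were set against the isoforms with a coverage of 30 to 300, with 2925 in the polysome table and 3889 in the decay one. Coverage and every share of coverage were used for the choice, so they are given as a description.

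Every library came from wild-type (WT) mouse muscle cells: primary myoblasts of the gastrocnemius of female mice, given 1 µM of the ERK inhibitor SCH772984 and fused into myotubes within 24 h. For polysome profiling, cells received 100 µg/ml cycloheximide for 5 min, and lysates were separated on sucrose gradients of 10 to 50% into a free fraction, a light fraction (2 to 5 ribosomes) and a heavy fraction (6 or more ribosomes), with 2 mice per fraction and 6 libraries. For the decay assay, cells received 7.5 µg/ml actinomycin D, which stops transcription, for 0, 3, 6 or 12 h, with 3 mice per time and 12 libraries. The tables pool these libraries, so there is no value for a single mouse, fraction or time and no difference below could be tested against the spread between mice. No untreated or undifferentiated cells were compared, and in such bulk RNA more cells that make an mRNA and more of it per cell cannot be told apart.

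The method, TIF-seq2, joins the 2 ends of a cDNA before sequencing, so each read pair gives the start and the polyadenylation site of the same molecule. The 5′ untranslated region (UTR) is scanned by the small ribosomal subunit on its way to the start codon, and AUG triplets met on the way (upstream AUGs) can divert it. A terminal oligopyrimidine (TOP) start, a cytosine followed by pyrimidines at the first base, is found on mRNAs of ribosomal proteins and translation factors and makes their translation respond to the mTOR pathway. The 3′ UTR ends shortly after a hexamer, AAUAAA or AUUAAA in RNA, that the cleavage and polyadenylation machinery reads. During differentiation, myotubes fill with contractile proteins, and mRNAs of the sarcomere become a large part of the mRNA pool.

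The starts and ends of the leading isoforms show these features directly. The sequences are those of the deposited UTRs, 5′ to 3′, in DNA letters, with positions on GRCm39 as deposited. Below are the first 20 nt of 5 leading isoforms of muscle genes, none of which is a TOP start, then of 6 isoforms with one. Capitals mark the unbroken pyrimidine run, which had to be C and then at least 4 of C or T.
Des, chr1:75336976-75344357, plus strand: acccatcttcacatccactc
Acta1, chr8:124618508-124621490, minus strand: acacggacgtgaagcctcac
Tnni1, chr1:135727179-135738715, plus strand: actctgcagtctgtggtgag
Tpm2, chr4:43515683-43523464, minus strand: acagtccctcttggtcctcc
Mylpf, chr7:126810876-126813459, plus strand: agattctcttcctttttcca
Rplp2, chr7:141027564-141031262, plus strand: CTTTCgccgccggacgccgc
Rack1, chr11:48691187-48696912, plus strand: CTTTTTCTCCacagggtcgt
Rps10, chr17:27849397-27854214, minus strand: CTTTCCagcctccgcctcgg
Rpl13a, chr7:44775347-44778160, minus strand: CTTTCCCaggcggctgccga
Eef2, chr10:81012480-81018329, plus strand: CTCTTCCgccgcagccgccg
Cav3, chr6:112436698-112449832, plus strand: CTTTCTgcccccaggactat
The 5 muscle isoforms began with A, and the run of the others was 5 nt in Rplp2, 6 nt in Rps10 and Cav3, 7 nt in Rpl13a and Eef2 and 10 nt in Rack1.

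The last 30 nt before the polyadenylation site are shown for 5 isoforms with a hexamer, in capitals, in their last 40 nt. AATAAA and ATTAAA were searched on the transcribed strand. Tpm2, which encodes β-tropomyosin, appears with both of its abundant 3′ ends.
Des: ggacagaaacaatAATAAAgagacaagcac
Acta1: gcATTAAAgccagccattctgttttgctcc
Tpm2, 3′ UTR of 238 nt: actacttAATAAActctgaacttggtctcc
Tpm2, 3′ UTR of 1209 nt: tcctcgggccAATAAActgatgttactggc
Rplp2: cctgcaAATAAAgtctttttatgtatcttg
The hexamer began 17 nt before the end in Des, 28 nt in Acta1, 23 nt and 20 nt in the shorter and longer Tpm2 isoform and 24 nt in Rplp2. Over all abundant isoforms that had it, the median distance was 21 nt (quartiles 19 to 23 nt) in both tables, against 21 nt (19 to 24 nt) for coverage 30 to 300.

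The deposited tables give no gene names. Isoforms were named by finding the start of their 5′ UTR in RefSeq promoter sequences of GRCm38.p6, or by sharing the sequence next to the start or stop codon with an isoform named that way. This named 200 of the 327 abundant polysome isoforms (62.9% of their coverage) and 195 of the 312 abundant decay isoforms (64.2%), so counts of genes below are minimum counts. The labelled cell type was checked against its markers: of 13 myotube markers, 10 had a named isoform in each table and 6 and 9 had an abundant one in the polysome and the decay table. Their summed share of nuclear coverage was 7.62% and 7.49%. None of the 6 fibroblast, 3 endothelial, 4 macrophage, 3 adipocyte and 3 Schwann cell markers searched for had a named isoform, where 58.7% of all nuclear polysome isoforms carry a name. Abundant isoforms of matrix genes outside that list, such as Sparc and Timp1, are described below.

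A small share of isoforms held most of the mRNA counted. The 327 abundant isoforms were 4.61% of the nuclear isoforms of the polysome table and held 60.2% of its nuclear coverage of 1600529, against 16.6% for the 2925 isoforms of coverage 30 to 300. In the decay table the 312 abundant isoforms were 4.73% of isoforms and held 59.3% of a nuclear coverage of 3117987, against 11.9% for the 3889 less covered ones. The leading 198 polysome and 194 decay isoforms reached 50% of coverage. The polysome table was the steeper of the 2 at its top: its first isoform, of Des, the intermediate filament protein that ties myofibrils together, had 50264 counts or 3.14%, against 1.49% for the first of the decay table, the shorter Tpm2 isoform with 46421 counts. The 10 leading isoforms held 11.3% and 10.7%, the 50 leading ones 27.1% in each table, and the 100 leading ones 38.0% and 37.9%. Within the abundant class the median coverage was 1796 (quartiles 1327 to 3032) and 3858.5 (2565.5 to 6590.5).

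**Figure D1:**
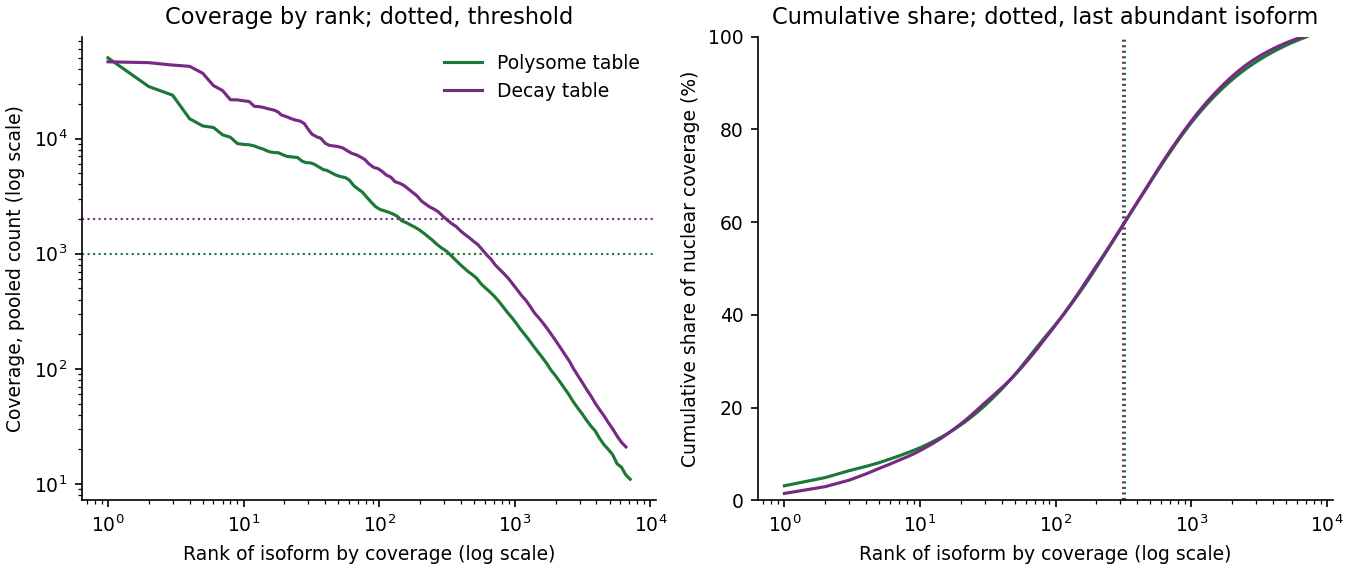
Coverage of each nuclear isoform by its rank (left, both axes logarithmic) and the cumulative share of nuclear coverage by rank (right, logarithmic x axis), for the polysome table and the decay table. Dotted lines mark the thresholds of 1000 and 2000 counts on the left and the 327 and 312 abundant isoforms on the right, which reach 60.2% and 59.3% of the coverage.

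The thresholds cut through a continuous distribution. For a true count of 1000 the 95% Poisson range is 939 to 1064, and 21 isoforms lay inside the threshold and 21 outside within it. For 2000 the range is 1913 to 2090, with 15 inside and 13 outside. The last polysome isoforms taken were of Abhd16a (1011), an unnamed isoform (1009) and Bola2 (1005), and the next ones were of Serpinh1 (996), an unnamed isoform (995) and an internal Acta1 start (994). In the decay table Uqcc2 (2013), an internal Des start (2005) and an unnamed isoform (2000) were the last inside, and 3 unnamed isoforms with 1997, 1996 and 1993 counts were just outside. These ranges cover counting error only.

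Most abundant isoforms recurred in the other assay. Of the 327 polysome isoforms, 237 (72.5%, 95% Wilson interval 67.4 to 77.0%) had exactly the same ends in the decay table, against 1249 of 2925 (42.7%, 40.9 to 44.5%) at coverage 30 to 300. Of the 312 decay isoforms, 241 (77.2%, 72.3 to 81.5%) had the same ends in the polysome table, against 1331 of 3889 (34.2%, 32.7 to 35.7%). With both ends allowed to move by up to 10 nt, 87.2% and 90.4% of abundant isoforms had a partner, and with up to 100 nt 98.5% and 98.7%, which left 5 and 4 without one. A less covered isoform is more easily missed at the floor of 11 or 21 counts at which the tables begin, and the part of this in the difference was not tested. These intervals and the median intervals below cover spread across isoforms and not across mice.

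Abundant isoforms used annotated ends more often. The authors' annotation class was "annotated transcript", with both ends within 100 nt of an annotated transcript, for 243 of 327 abundant polysome isoforms (74.3%, 69.3 to 78.7%), against 1582 of 2925 (54.1%, 52.3 to 55.9%) at coverage 30 to 300. In the decay table these were 224 of 312 (71.8%, 66.6 to 76.5%), against 1964 of 3889 (50.5%, 48.9 to 52.1%). The largest part of the gap lay at the 5′ end. Isoforms with only a new transcription start site (TSS) were 28 of 327 (8.56%), against 691 of 2925 (23.6%), in the polysome table and 27 of 312 (8.65%), against 919 of 3889 (23.6%), in the decay table. Intergenic isoforms aside, starts more than 100 nt inside an annotated transcript made up 13.3% of abundant polysome isoforms, against 26.0%. In the decay table they made up 12.4%, against 26.2%. Starts more than 100 nt upstream of the annotated one made up 1.27%, against 4.16%, in the polysome table.

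At the 3′ end the classes lay closer together. Isoforms with only a new polyadenylation site (PAS) made up 27 of 327 (8.26%), against 434 of 2925 (14.8%), in the polysome table and 42 of 312 (13.5%), against 703 of 3889 (18.1%), in the decay table. Isoforms new at both ends made up 5.50%, against 6.12%, and 4.49%, against 5.89%, with overlapping intervals in each table. The most covered isoform of both Des and Tpm2 was a new PAS isoform: the distance of the end from the annotated one was -866 nt for Des and -971 nt for Tpm2, a negative distance lying inside the annotated transcript. Among annotated transcripts, abundant ones ended within 10 nt of the annotated site in 93.0% (89.1 to 95.6%), against 88.5% (86.8 to 89.98%), of polysome isoforms and in 92.4%, against 85.9%, of decay isoforms. Their starts lay within 10 nt of the annotated one in only 44.9%, against 40.4%, and 44.6%, against 40.3%, so 5′ ends were looser than 3′ ends in both classes.

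Intergenic isoforms were 11 of 327 abundant polysome isoforms (3.36%, 1.89 to 5.92%), against 39 of 2925 (1.33%, 0.977 to 1.82%), and 5 of 312 decay isoforms (1.60%), against 74 of 3889 (1.90%). Of these 11, 8 belonged to a cluster on the minus strand of chromosome 7 that ended at position 142129269 and started at 8 positions up to 142131714, with 1178 to 2531 counts each and 15077 counts in the whole locus. The decay table had 3 abundant isoforms of the cluster, with 6584, 2595 and 2361 counts and HalfLife values of 13.0, 14.5 and 12.7. The most covered intergenic isoform, 492 nt long at chr6:57994470-57994961 on the plus strand, had 4397 counts in the polysome table and 8772 in the decay table, with a HalfLife of 13.3. No intergenic isoform has a UTR or a TE value in the tables, and none was named.

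**Figure D2:**
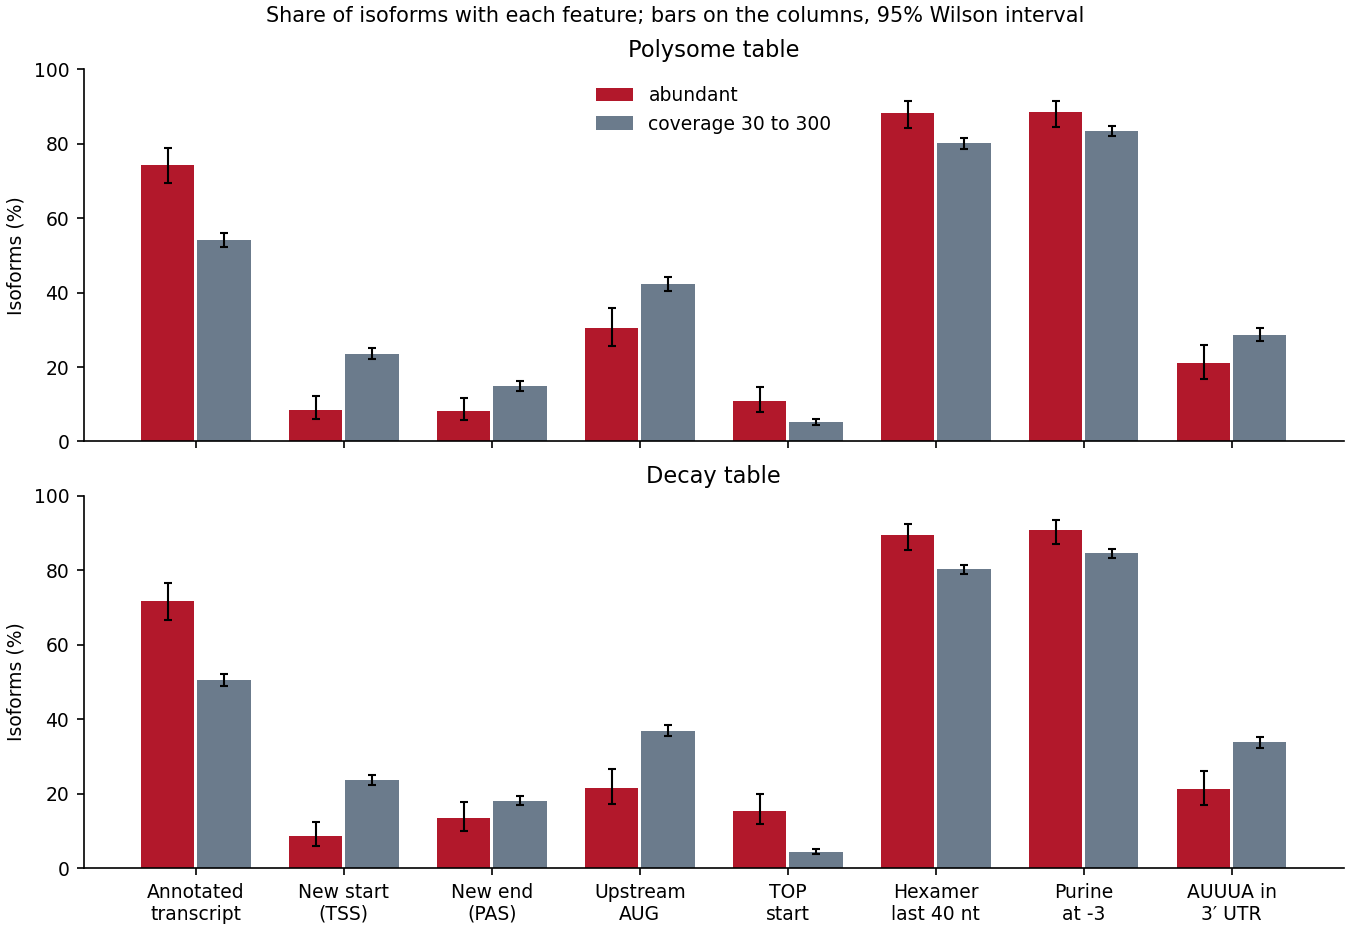
Share of isoforms (%) with each annotation class, start type and end feature in the polysome table (top) and the decay table (bottom), for abundant isoforms (red) and isoforms of coverage 30 to 300 (blue-grey), with 95% Wilson intervals. Annotated transcripts, TOP starts and hexamers were more frequent among abundant isoforms in both tables, and new TSS isoforms and upstream AUGs less frequent.

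Abundant isoforms had shorter UTRs on both sides. The median 5′ UTR was 79 nt (quartiles 49.25 to 154 nt, n = 314), against 111 nt (50 to 225 nt, n = 2701), in the polysome table and 77 nt (39 to 127 nt, n = 306), against 103 nt (44 to 196 nt, n = 3576), in the decay table. What abundant isoforms lacked were long 5′ UTRs: 16.6%, against 29.0%, and 13.7%, against 24.4%, were over 200 nt. At the short end, 5′ UTRs of up to 30 nt made up 11.8%, against 15.2%, and 15.7%, against 17.2%. The longest abundant one was 913 nt in the polysome table, on an unnamed new TSS isoform with 5 upstream AUGs, and 702 nt in the decay table, on Rpsa. The median 3′ UTR was 228 nt (108 to 489 nt, n = 315), against 328.5 nt (145 to 637 nt, n = 2808), in the polysome table and 188 nt (103 to 370.5 nt, n = 306), against 325 nt (157 to 640 nt, n = 3730), in the decay table. Here both tails moved: 23.5%, against 15.6%, and 24.5%, against 13.8%, were at most 100 nt long, and 17.8%, against 26.6%, and 11.8%, against 26.7%, were over 600 nt. The longest abundant 3′ UTRs were the 1696 nt of Jph2, which encodes the junctophilin that holds plasma membrane and sarcoplasmic reticulum together, and the 1521 nt of Cdc37, an HSP90 co-chaperone.

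Across coverage bins the 3′ UTR shortened step by step, while the 5′ UTR levelled off. In the polysome table the median 3′ UTR was 330 nt at coverage 30 to 100, 325 nt at 101 to 300, 274 nt at 301 to 999, 237 nt at 1000 to 1999, 208.5 nt at 2000 to 4999 and 181 nt from 5000 up. The decay table gave 339, 297, 285, 240, 207.5 and 151 nt for the same bins. Median 5′ UTRs in the polysome table were 113, 105, 80, 80.5, 74 and 86 nt, so from 301 counts up there was no order. The decay table had 106, 98, 79.5, 71, 81 and 74 nt. GC content hardly differed, with a median of 63.5%, against 62.0%, for 5′ UTRs and 53.9%, against 52.7%, for 3′ UTRs of the polysome table. The genomic span between the ends, introns included, was also smaller, with a median of 5307 nt, against 8075 nt, in the polysome table and 5037 nt, against 8858 nt, in the decay table. How far the length of a molecule affects its chance to be captured with both ends was not tested.

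**Figure D3:**
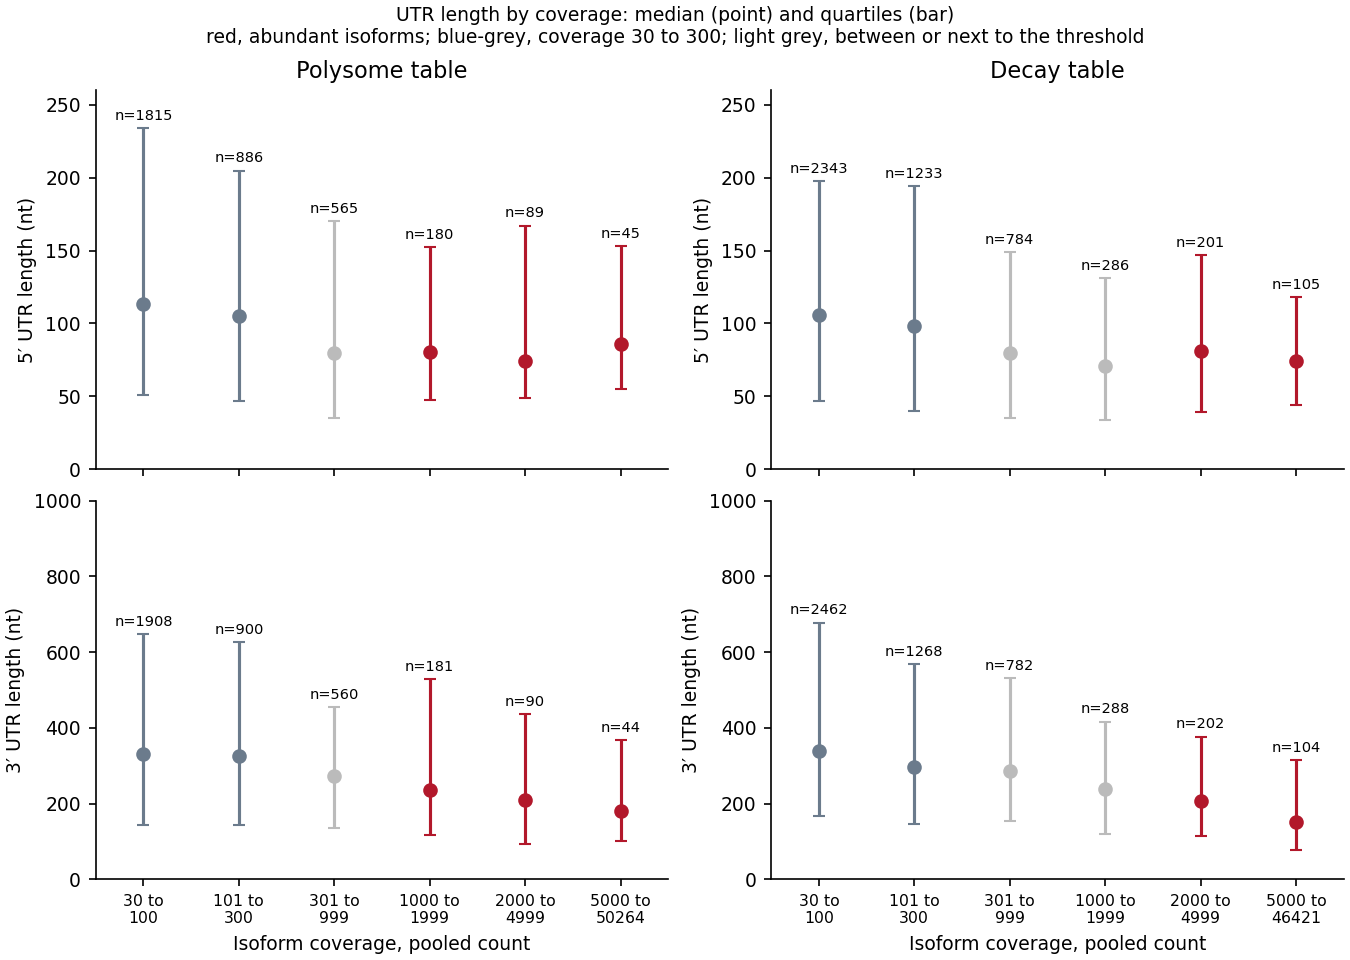
Median (point) and quartiles (bar) of the 5′ UTR length (top) and 3′ UTR length (bottom), in nt, by coverage bin from low to high, for the polysome table (left) and the decay table (right), with the number of isoforms above each bar. The 3′ UTR median was 330 nt in the lowest and 181 nt in the highest polysome bin, and 339 nt and 151 nt in the decay table.

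Upstream AUGs were rarer and TOP starts more common among abundant isoforms. At least 1 upstream AUG was found in 96 of 314 abundant 5′ UTRs (30.6%, 25.7 to 35.9%), against 1144 of 2701 (42.4%, 40.5 to 44.2%), in the polysome table and in 66 of 306 (21.6%, 17.3 to 26.5%), against 1322 of 3576 (37.0%, 35.4 to 38.6%), in the decay table. From 5000 counts up the share was 22.2% and 12.4%. Shorter 5′ UTRs also leave less room for an AUG, and shares at matched length were not compared. A TOP start was found in 34 of 314 abundant isoforms (10.8%, 7.85 to 14.8%), against 139 of 2701 (5.15%, 4.37 to 6.04%), in the polysome table and in 47 of 306 (15.4%, 11.8 to 19.8%), against 158 of 3576 (4.42%, 3.79 to 5.14%), in the decay table. In all nuclear isoforms with a 5′ UTR the share was 5.42% and 5.55%. By coverage bin it was 4.57, 6.32, 8.32, 6.11, 14.6 and 22.2% in the polysome table and 4.35, 4.54, 7.14, 7.69, 12.4 and 20.95% in the decay table. Against a band of 100 to 300, the polysome excess of TOP starts was 4.57 percentage points, with an interval that includes 0 (-0.19 to 9.90). Adenine was the first base of most isoforms of either class, 61.8%, against 60.9%, and 60.1%, against 61.4%. Cytosine came first in 16.6%, against 13.0%, and 20.3%, against 11.2%.

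At the start codon the classes lay close together, and at the 3′ end a hexamer was more frequent in abundant isoforms. A purine, which favours recognition of the start codon, stood at position -3 from it in 88.5% (84.5 to 91.6%), against 83.5% (82.1 to 84.9%), of polysome isoforms and in 90.8% (87.1 to 93.6%), against 84.6% (83.4 to 85.8%), of decay isoforms. The polysome difference of 5.00 percentage points has an interval that includes 0 (-0.35 to 9.52), and it was 1.95 with 1 isoform per locus and 1.03 with annotated transcripts only. The decay difference of 6.204 points was 4.02 with 1 isoform per locus and 4.11 with annotated transcripts only, both with intervals that include 0. A hexamer lay in the last 40 nt of 278 of 315 abundant polysome isoforms (88.3%, 84.2 to 91.4%), against 2250 of 2808 (80.1%, 78.6 to 81.6%), and of 274 of 306 abundant decay isoforms (89.5%, 85.6 to 92.5%), against 2996 of 3730 (80.3%, 79.0 to 81.6%). All nuclear isoforms had it in 79.3% and 81.2%. With annotated transcripts only, the polysome difference was 5.13 points, with an interval that includes 0 (-1.41 to 10.7). AATAAA alone was present in 76.2%, against 66.2%, and 77.1%, against 65.5%. The pentamer ATTTA, the core of AU-rich elements that shorten the life of many mRNAs, was found in 20.95% of abundant 3′ UTRs, against 28.7%, and in 21.2%, against 33.8%, where shorter 3′ UTRs also leave less room for it.

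TE is the authors' value per isoform in the polysome table. The sources used here give neither its formula nor its unit, and it comes from the same libraries as the coverage that chose the isoforms. The median TE of abundant isoforms was 0.000866 (95% interval 0.000800 to 0.000965, quartiles 0.000600 to 0.00125, n = 313), against 0.000714 (0.000696 to 0.000737, quartiles 0.000490 to 0.00104, n = 2650) at coverage 30 to 300. The distributions overlapped widely, since 195 of the 313 (62.3%, 56.8 to 67.5%) lay above the median of the less covered isoforms. Their spread was about the same, with a ratio of upper to lower quartile of 2.09, against 2.13. Isoforms chosen by the decay table, whose libraries did not enter TE, had a median TE of 0.000965 (0.000870 to 0.00104, n = 237), against 0.000734 (0.000709 to 0.000758, n = 1221). This holds only for isoforms with the same ends in both tables, 77.2% of the abundant and 34.2% of the less covered ones.

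HalfLife, the authors' value in the decay table, had a higher median and a narrower spread in abundant isoforms. Its unit is not stated. The median was 12.4 (12.2 to 12.6, quartiles 11.5 to 13.3, n = 312), against 10.2 (10.1 to 10.3, quartiles 8.39 to 12.7, n = 3837). Of the 312, 291 (93.3%, 89.9 to 95.6%) lay above the median of the less covered isoforms. Between the 5th and 95th percentile abundant isoforms spanned 1.54-fold, against 3.41-fold. The less covered isoforms rest on fewer counts, and the part of counting error in their wider spread was not tested. The decay coverage is summed over 0 to 12 h, so a long-lived mRNA keeps more counts and the choice itself may favour long half-lives. With classes set by the polysome table, the median was 12.4 (12.0 to 12.6, quartiles 11.05 to 13.2, n = 237), against 11.1 (10.9 to 11.4, quartiles 9.22 to 13.6, n = 1235), so the log2 ratio of the medians was 0.15, and 0.29 with classes by the decay table. Only isoforms with the same ends in both tables enter the former, 72.5% of the abundant and 42.7% of the less covered ones. The part of this selection in the smaller ratio was not tested. If the values are in hours, 182 of 312 abundant isoforms (58.3%, 52.8 to 63.7%), against 1175 of 3837 (30.6%, 29.2 to 32.1%), lay beyond the last time of 12 h. No abundant isoform had a HalfLife below 0 or missing (0 of 312, interval up to 1.22%), against 8 and 44 at coverage 30 to 300.

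**Figure D4:**
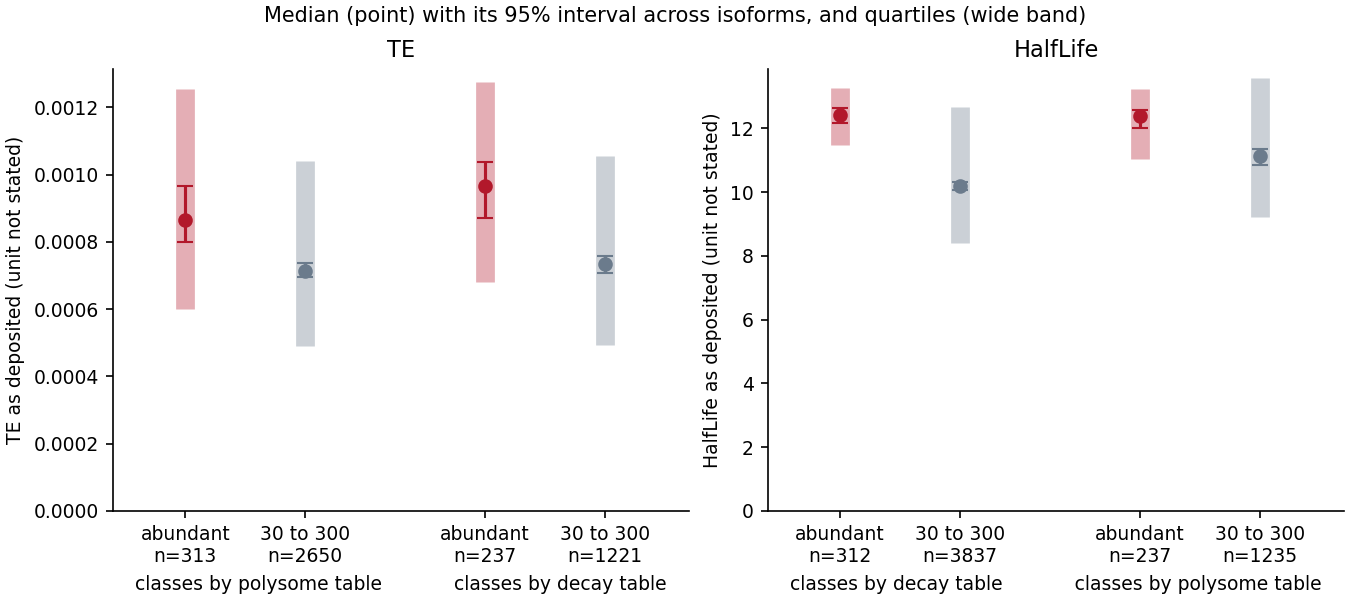
Median (point) of TE (left) and HalfLife (right) as deposited, with its 95% interval across isoforms and quartiles (wide band), for abundant isoforms (red) and coverage 30 to 300 (blue-grey), with classes set by the same table or by the other table. The median TE was 0.000866 and 0.000965 in abundant isoforms, against 0.000714 and 0.000734, and the median HalfLife was 12.4 and 12.4, against 10.2 and 11.1.

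For TE, the difference between the classes was smaller than that between short and long 3′ UTRs inside the abundant class. With a 3′ UTR of up to 100 nt, abundant isoforms had a TE median of 0.00127 (quartiles 0.000933 to 0.00179, n = 74), and those over 600 nt had 0.000566 (0.000416 to 0.000733, n = 55). Spearman's rho between TE and 3′ UTR length was -0.53 over 313 abundant isoforms and -0.42 over 2650 less covered ones. With 5′ UTR length it was -0.28 and -0.25. Within a 3′ UTR length class the ratio of abundant to less covered median TE was 1.35 at up to 100 nt, 1.10 at 101 to 300 nt, 1.17 at 301 to 600 nt and 1.07 above, so in long 3′ UTRs the classes came close to each other. For HalfLife the ratios were 1.22, 1.18, 1.18 and 1.21. Points of these correlations share libraries and loci, and rho is given as a description.

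Start features split TE and HalfLife in different ways. Abundant isoforms with an upstream AUG had a median TE of 0.000681 (n = 96), and those without had 0.000977 (n = 217), while their HalfLife medians were 12.5 (n = 66) and 12.4 (n = 240). Abundant TOP isoforms had a median TE of 0.00108 (quartiles 0.000924 to 0.00130, n = 33), and abundant isoforms without a TOP start had 0.000830 (0.000596 to 0.00121, n = 280). At coverage 30 to 300 the medians lay close together in the opposite order. They were 0.000671 (quartiles 0.000476 to 0.000981, n = 136) for TOP and 0.000716 (0.000490 to 0.00105, n = 2507) for other isoforms. Neither start feature was compared at matched UTR length. All abundant isoforms with a 3′ UTR of up to 100 nt had a median TE of 0.00127 (n = 74), and the translation genes among TOP isoforms had short 3′ UTRs. HalfLife medians were 12.8 with and 12.2 without a TOP start in abundant isoforms, and 11.2 and 10.1 in less covered ones. With ATTTA in the 3′ UTR, abundant isoforms had a median HalfLife of 11.6 (n = 65), and without it 12.6 (n = 241). TE and HalfLife had a rho of 0.44 over the 228 abundant polysome isoforms with both values, 0.29 over the 237 abundant decay isoforms and 0.37 over the 156 that passed both thresholds, and of 0.15 over 1160 polysome and 0.052 over 1209 decay isoforms of coverage 30 to 300. How far counting error at low coverage affects rho was not tested.

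Sarcomere and contraction genes were the largest named group by coverage. They gave 22 abundant isoforms of 14 genes with 9.75% of nuclear coverage in the polysome table, and 30 isoforms of 22 genes with 12.1% in the decay table. The lists name 54 genes, of which 31 and 33 had any named isoform. Their median TE was 0.000742 (quartiles 0.000386 to 0.00104, n = 21), and 8 of 21 lay above the abundant median of 0.000866. Of these 21 values, 7 belonged to Des isoforms with a shared 3′ end, at 0.000339 to 0.000403, so this gene weighs on the median. The median HalfLife of the list was 12.2 (11.5 to 12.8, n = 30), with 14 of 30 above the abundant median of 12.4. Among those named, troponins had high and actins low TE. Tnnt2, Tnnc1 and Tnnc2, which encode a troponin T and the 2 calcium-binding troponin C proteins, had a TE of 0.00211, 0.00182 and 0.00175. Tnnt1 and Tnni1 of slow fibres had 0.00132 and 0.00104. The actins Actc1, Acta2 and Acta1 had 0.000784, 0.000742 and 0.000633, and the main Des isoform had 0.000403.

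The coverage of sarcomere isoforms differed between the assays. Acta1, skeletal muscle α-actin, had 28298 counts in the polysome table and 42409 in the decay table, with a HalfLife of 12.5. With nuclear totals of 1600529 and 3117987 counts, its share was 1.77% and 1.36%, so it was lower in the decay table. Tnni1, slow skeletal troponin I, had 9051 and 36917 counts and a HalfLife of 12.0. Mylpf, the fast muscle regulatory myosin light chain, had 8097 and 28852 counts, a TE of 0.00136 and a HalfLife of 12.8. Actc1, the cardiac actin also made in developing skeletal muscle, had 5953 and 26123 counts and a HalfLife of 11.5, and Tnnc2 had 1686 and 19059 counts and 12.5. Among named isoforms the gap was widest for the myosin light chain gene Myl1, with 129 and 10108 counts and a HalfLife of 11.3. As a share of nuclear coverage, 22 of 26 sarcomere isoforms that were abundant in either table were higher in the decay table. Their median log2 ratio of decay to polysome share was 1.34 (quartiles 0.34 to 2.41), against 0.02 (-0.85 to 1.06) over all 318 such isoforms. Lower there were Acta1 at -0.38, the longer Tpm2 isoform at -1.11 and Des isoforms at -1.13 and -1.17. Isoforms below the polysome threshold, such as Myl1 (129 counts), Mb (278) and Ckm (676), entered through the decay table alone. A Des isoform of 1470 decay counts entered through the polysome table alone. How far this choice moves the medians of the lists was not tested. The 18 respiratory chain isoforms had a median of 1.11, with 14 higher. The 226 isoforms of no list had -0.20, with 93 higher. At the other end lay an unnamed isoform on chromosome 15 at -5.57, Hyal2, a hyaluronidase, at -4.90, Thap7 at -4.06 and Sct, the hormone secretin, at -3.59. The tables come from separate libraries and were made separately, and the source of these gaps was not tested.

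The lowest HalfLife values in the muscle list belonged to Actn2, the α-actinin of the Z-disc, with 9.25 at 2539 counts, and Myl1, with 10.3 for its other abundant isoform of 5671 counts. Ckm, the muscle creatine kinase, had 6986 counts and 12.8, and Mb, myoglobin, 4094 counts and 11.7. Of the 12 myogenic regulators listed, 3 had any named isoform in the polysome table and 2 in the decay table. The only abundant isoform that could be named was of Myog, the transcription factor myogenin, in the decay table, with 2316 counts and a HalfLife of 8.73, below the lower quartile of the abundant class.

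The translation machinery gave 18 abundant polysome isoforms with 4.099% of nuclear coverage and 23 decay isoforms with 4.93%. These isoforms were short in both UTRs, with medians of 56.5 nt (5′) and 42.5 nt (3′) in the polysome table. Their median TE was 0.00127 (quartiles 0.000949 to 0.00171), and 14 of 18 lay above the abundant median. Their median HalfLife was 12.8 (12.5 to 13.5), with 17 of 23 above it. A TOP start was found in 15 of the 18 and 20 of the 23, and Eif3g, Eif5a and Rps15 lacked one in both tables. In turn, 15 of 18 named TOP isoforms and 20 of 24 were of this list. The others were Cav3, the muscle caveolin, Fis1 and Nkiras2 in the polysome table and Cav3, Got2, Uqcrh and Use1 in the decay table. TOP runs of abundant isoforms had a median of 7 nt and reached 13 and 17 nt, and TOP isoforms held 8.87% and 10.3% of nuclear coverage.

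TE differed widely among TOP isoforms. Rplp2, a protein of the ribosomal stalk, led the list with 12873 and 18216 counts, a TE of 0.00128 and a HalfLife of 12.6. Fau, which encodes a ribosomal protein fused to a ubiquitin-like one, had a TE of 0.00212 and Rpl13a 0.00180, while Rack1, a scaffold of the small subunit, had 0.000694, Rpsa 0.000457 and Eef2, the elongation factor that moves the ribosome along, 0.000258. Eef2 was the lowest of the 313 abundant polysome isoforms with a value. Rpsa, a protein of the small subunit, stood out by a 5′ UTR of 702 nt with 9 upstream AUGs. Such a length is that of the region between start site and start codon as deposited, and whether it includes intron was not tested. Deposited 5′ UTRs reach 49855 nt at coverage 30 to 300 in the polysome table. HalfLife values were 15.4 for Fau, 14.6 for Rpl13a, 13.8 for Rack1, 12.9 for Rpsa and 11.3 for Eef2. The abundant Fau isoform ended at 6109548 in the polysome table and at 6109546 in the decay table, so its TE and HalfLife belong to different isoforms. Start sites can also switch a TOP start on and off within a few bases. For Got2, the mitochondrial aspartate aminotransferase on the minus strand of chromosome 8, the abundant polysome isoform started at 96615029 and the abundant decay isoform at 96615018.
Got2, start 96615029: actgtcctcaccttttagga
Got2, start 96615018: CTTTTaggagcccgcgcctc
The downstream start falls on the pyrimidine run that is internal to the longer isoform, so only the shorter one counts as a TOP start.

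Energy metabolism fell into 2 sets with different TE. Glycolysis had 8 abundant isoforms of 5 genes in each table, with 2.54% and 2.62% of coverage, a median TE of 0.000758 and a median HalfLife of 12.0. Pkm, pyruvate kinase of muscle, had 8317 counts and a TE of 0.000500 in the polysome table, with a start at 59563856. In the decay table the same end was joined to a start at 59563859, with 10846 counts and a HalfLife of 11.9. Tpi1, triosephosphate isomerase, had 7540 and 15025 counts, 0.000848 and 12.8. Nuclear genes of the respiratory chain and ATP synthase gave 12 abundant isoforms (2.03%) in the polysome table and 22 (3.65%) in the decay table. Their median TE was 0.00158 (quartiles 0.00141 to 0.00177), and 11 of 12 lay above the abundant median, while only 6 of 22 did for HalfLife (median 11.7). Their 5′ UTRs were short, with a median of 28.5 nt in the polysome table. Uqcrc1, a core subunit of complex III, led with 10780 and 20981 counts, a 5′ UTR of 18 nt, a TE of 0.00156 and a HalfLife of 11.7. Ndufv1 of complex I had the highest TE of the list, 0.00254, and Atp5b, the catalytic β subunit of ATP synthase, the lowest, 0.000627. Ndufb7 had a HalfLife of 15.6. Slc25a5, an ADP/ATP carrier, was at 8.74 and Slc25a3, the phosphate carrier, at 9.91.

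**Figure D5:**
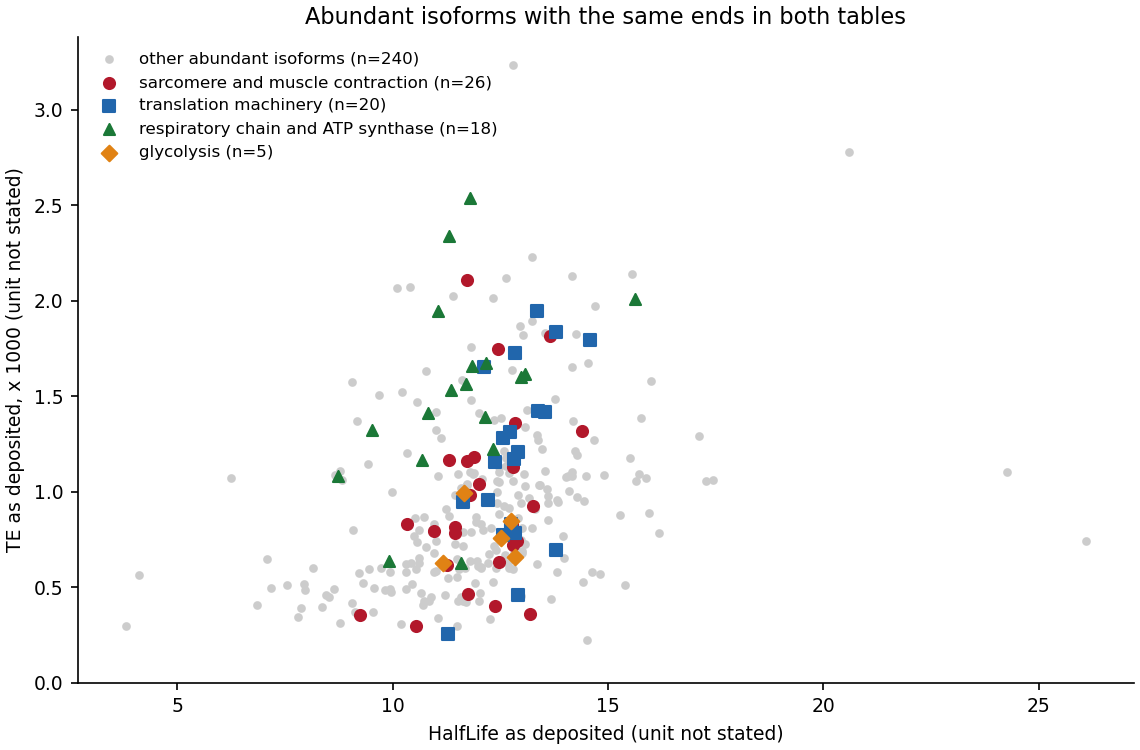
TE (times 1000) against HalfLife, both as deposited, for the 309 abundant isoforms with the same ends and a value in both tables: 26 of the sarcomere list, 20 of translation machinery, 18 of respiratory chain and ATP synthase, 5 of glycolysis and 240 others. Most respiratory chain isoforms lie high in TE, with Atp5b at 0.000627 among the exceptions, and sarcomere isoforms spread between 0.000295 and 0.00211, while most points of these 4 lists lie between 11 and 14 in HalfLife.

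The remaining lists were small. Cytoskeleton genes had 5 and 4 abundant isoforms, among them Tuba1a, an α-tubulin, with 5320 and 2498 counts and a HalfLife of 10.6. Matrix and fibroblast genes had 4 and 5. Of these, Timp1, an inhibitor of matrix metalloproteinases, had 1736 and 2107 counts, a TE of 0.00129 and a HalfLife of 17.1, while Sparc, a secreted collagen-binding protein, had 1641 and 3215 counts, 0.000620 and 10.3. Protein folding and turnover had 3 and 5, led by Ubb, a polyubiquitin gene, with 6348 and 17002 counts, 0.000650 and 11.5. The iron and redox list had 3 and 4, with Fth1, the ferritin heavy chain, at 1543 and 7853 counts and 0.000747, and Sod1, a superoxide dismutase, at 1482 polysome counts and 0.00183. The imprinted and signalling list had no abundant isoform that could be named. Unnamed abundant isoforms, the chromosome 7 cluster included, were matched to no gene and may belong to this or another list. Beyond the lists, 125 and 93 abundant isoforms carried other gene names. The most covered of these in the decay table, Tecr, a reductase of fatty acid elongation, had 6885 and 21740 counts, a TE of 0.00106 and a HalfLife of 12.8.

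The abundant class usually holds 1 isoform per gene. The 327 polysome isoforms fell into 298 of 3080 loci and the 312 decay isoforms into 290 of 3414, and 282 and 272 of these loci had a single abundant isoform. Loci with an abundant isoform listed more isoforms in all, with a median of 4 (quartiles 2 to 7) in the polysome table and 3 (2 to 6) in the decay table, against 1 in other loci. In loci with more counts, more minor isoforms pass the floor of 11 or 21 counts, and the part of this in the difference was not tested. The leading isoform of loci with an abundant one nevertheless held a median of 94.8% (86.4 to 98.7%) and 97.1% (89.7 to 99.3%) of its locus' coverage, and over 90% in 197 and 213 loci. Choosing loci by a highly covered isoform may favour a high share, and no such share is given for other loci.

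Des had more abundant isoforms than any other named gene, 8 in the polysome and 4 in the decay table, all with the same end at position 75344357 and a 3′ UTR of 663 nt. The main isoform, from 75336976, had 50264 and 43471 counts, a TE of 0.000403 and a HalfLife of 12.4. The other 7 polysome isoforms started downstream inside the gene and had 1146 to 4818 counts. TE was given for 6 of these, at 0.000339 to 0.000386, all below the main isoform, and not for the most covered of them, which started at 75343886, 472 nt before the end. In the decay table the 3 internal starts had 2713, 2524 and 2005 counts and HalfLife values of 14.8, 15.2 and 16.9, all above the main isoform. Whether these 5′ ends are starts of transcription or ends of shortened RNA was not tested. Without the Des locus, the medians of the abundant class stayed on the same side of those at coverage 30 to 300.

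Aldoa, the muscle aldolase of glycolysis, had 3 abundant isoforms per table that shared their end at 126394407 on the minus strand of chromosome 7. The start at 126398313, with a 5′ UTR of 109 nt, had 7625 and 18631 counts, a TE of 0.000627 and a HalfLife of 11.2. The start at 126399218, with 66 nt, had 3738 and 13565 counts, a TE of 0.000996 and a HalfLife of 11.7. The remaining start was at 126399609 in the polysome table (2222 counts, 171 nt, 1 upstream AUG, TE 0.000759) and at 126399537 in the decay table (5657 counts, 99 nt, HalfLife 11.3). TE thus differed between starts by more than HalfLife, as it did across the abundant class. There the 5th to 95th percentile spanned 5.14-fold for TE and 1.54-fold for HalfLife. Tpm2 had 1 start with 2 abundant ends. The 3′ UTR of 238 nt had 8897 and 46421 counts, a TE of 0.000831 and a HalfLife of 12.8, and the one of 1209 nt had 4798 and 4333 counts, 0.000466 and 11.8. The longer end thus held a larger part of the gene in the polysome table than in the decay table.

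Isoforms of the same locus were also compared. In 147 polysome loci an abundant isoform shared its 3′ end with one of coverage 30 to 300 that started elsewhere, and TE was higher in the abundant isoform in 77, with a median log2 ratio of 0.04 (quartiles -0.41 to 0.48). The sign followed the 5′ UTR: where the abundant isoform had the shorter one, its TE was higher in 57 of 89 loci (median 0.22), and where it had the longer one, in 20 of 58 (median -0.30). In 45 loci with the same start and another end, TE was higher in the abundant isoform in 21, with a median of -0.05 (-0.25 to 0.28), in 17 of 29 where its 3′ UTR was shorter and in 4 of 16 where it was longer. For HalfLife the abundant isoform was higher in 86 of 159 loci with the same end (median 0.03) and in 38 of 58 with the same start (median 0.07). Within genes, then, the median log2 ratios were near 0, against 0.28 for TE and 0.29 for HalfLife between the classes as a whole.

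Single pairs could differ more and in either direction, as 4 chosen after their values were seen show. The abundant Acta1 isoform, with a 5′ UTR of 72 nt, had a TE of 0.000633, against 0.000316 for one of 899 nt and 159 counts. For Cav3, 75 nt went with 0.000985, against 0.000644 for 325 nt and 93 counts. For Rpl13a, a 3′ UTR of 23 nt went with 0.00180, against 0.000966 for 174 nt and 32 counts, while HalfLife was 14.6, against 14.0 for the same pair at 70 counts. For Tpm2 the shorter 5′ UTR had the lower value, 0.000831 with 110 nt, against 0.000922 for 131 nt and 139 counts. These pairs differ in depth as well as in UTR, and the less covered member rests on 32 to 159 counts.

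Several of the most covered isoforms could not be named. The second in the decay table, at chr2:26951688-26962169 on the minus strand, had 45636 counts and a HalfLife of 12.3, with no hexamer in its last 40 nt and a 3′ UTR of 512 nt. In the polysome table the same end was joined to another start, at 26962223, with 23796 counts and a TE of 0.000828. The fourth in the polysome table, at chr10:80644332-80649331 on the minus strand, had 14873 and 14409 counts, a TE of 0.00223, 2 upstream AUGs and a HalfLife of 13.2. On the plus strand of chromosome 10, a TOP isoform at 79978221-79981645 had 10263 polysome counts and a TE of 0.00130, and in the decay table a start at 79978198 with no TOP run was joined to the same end, with 21266 counts and a HalfLife of 13.1. An annotated TOP isoform at chr8:71348023-71350056 on the minus strand had 12479 and 21681 counts and a HalfLife of 12.6, but no 3′ UTR sequence and no TE in the tables. In all, 14 of the 327 abundant polysome isoforms had no TE: the 11 intergenic ones, this isoform, the internal Des start and an unnamed new TSS isoform of 1141 counts on chromosome 7.

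The extremes are given for each table's own abundant isoforms and own value. The highest TE values among abundant polysome isoforms were 0.00323 and 0.00317, both on unnamed annotated transcripts, at chr14:47611374-47623255 on the plus strand and chr5:130040346-130053186 on the minus strand, and 0.00278 on Sct. After Eef2, the lowest were 0.000299 on Hyal2, with a 3′ UTR of 1620 nt, and 0.000299 on an unnamed isoform of 4889 counts on chromosome 19. The highest HalfLife of an abundant decay isoform, 26.1, belonged to an unnamed TOP isoform of 5196 counts on chromosome 18, followed by Timp1 and the internal Des start. The lowest of the abundant decay isoforms were 8.36 on an unnamed new TSS isoform of 4142 counts on chromosome 5, 8.52 on Asb2, a muscle ubiquitin ligase component, and 8.64 on an unnamed isoform of 3793 counts on chromosome 18.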

How the data were processed

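TIF-seq2 libraries of WT mouse myotubes were made from 3 polysome fractions (6 libraries) and at 4 times of actinomycin D (12 libraries). The submitters' processing notes name bcl2fastq 2.20.0, cutadapt 1.16, UMI-tools 0.5.4, STAR 2.5.3a and the build GRCm39. The sources used here do not say how ends were clustered, whether molecular identifiers entered the counts, or by which formulas TE and HalfLife were made. For each assay the authors deposited a single table, with a raw whole-number count (coverage) per isoform summed over all libraries, 1 derived value (TE or HalfLife, unit not stated), an annotation class, distances to annotated ends and UTR sequences. The deposited counts begin at 11 in the polysome and 21 in the decay table. Columns that hold 1 library alone number 0, so the depth of each library is unknown, isoforms are not replicates and no test was made. Values set side by side from the 2 tables come from tables made separately.

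Nuclear isoforms were taken, and mitochondrial ones left out. Medians carry quartiles and 95% order-statistic intervals, and shares carry 95% Wilson intervals. TE and HalfLife below 0 or missing were left out of medians. A TOP start was C and then at least 4 pyrimidines at the first base, and a hexamer AATAAA or ATTAAA in the last 40 nt of the 3′ UTR. Overlapping isoforms of a strand were joined into loci where an end, or the sequence beside the start or stop codon, was the same. The feature and interval functions were tested on simulated data. Work was done in Python 3.11.15 with pandas 2.3.3, numpy 2.4.6, SciPy 1.17.1 and matplotlib 3.10.9.

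An isoform was named where the first 25 bases of its 5′ UTR (or a whole 5′ UTR of 20 to 24 bases) lay in the RefSeq promoter window of 1 gene (GRCm38.p6, 250 bases before to 50 after the start), used for the name only. Naming by a partial overlap of 12 to 24 bases at the window's end and by shared codon context was added after the tables had been seen. It added 25 and 69 of the 200 names in the polysome table, and 17 and 70 of the 195 in the decay table. Where isoforms could be named in both ways, 3229 names matched and 3 differed. The naming rule selected the 12 most covered isoforms of each table, the 3 highest and lowest values, those nearest the threshold and the members of 10 gene lists. The isoforms, features and gene lists were chosen with earlier results of these data known. 1 of the most covered isoforms is not reported here.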

Additional observations from a re-analysis of the deposited data

Results flagged for a closer look

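Rows of mitochondrially encoded RNA are present in both tables, and the comparisons do not use them. Their summed coverage was 1390 counts over 28 rows in the polysome table (0.0868% of all coverage) and 3504 counts over 43 rows in the decay table (0.112%). The most covered of these rows had 270 and 609 counts, so none reached the thresholds of 1000 and 2000.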

How the results depend on the processing

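Each result was recomputed with other coverage thresholds and bands, 1 isoform per locus, annotated transcripts only and other motif definitions, 92 alternatives over 18 results in all. Of these, 85 stayed within the interval of the value given, 7 moved beyond it and 0 reversed. The excess of annotated transcripts was 12.0 percentage points in the polysome table and 13.9 in the decay table with a band of 100 to 300 (20.2 and 21.3 with 30 to 300), and 14.1 in the decay table with 1 isoform per locus. The excess of TOP starts was 12.0 points in the polysome table for isoforms from 2000 counts, against 5.68 from 1000. The log2 ratio of median HalfLife was 0.21 with the band of 100 to 300 and 0.15 with classes set by the polysome table, against 0.29. With mitochondrial rows in the total, abundant decay isoforms held 59.26% of coverage, against 59.32%. The log2 ratio of median TE stayed between 0.25 and 0.40. Leaving out the locus with most abundant isoforms was chosen after seeing the data.

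No paired analysis was possible because the deposited columns pool all libraries of an assay. No library was left out for the same reason, and neither the spread between mice nor the depth of a fraction or time is known. Coverage depends on depth, on the capture of both ends and, in the decay table, on stability, and gene names cover 61.2% of abundant polysome isoforms.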
